A study of Homo sapiens with 4 samples.

Results

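The BCL2 family decides whether a cell commits to the mitochondrial route of apoptosis, and 10 of its genes are described here across UMUC3 and SW780, 2 lines of human bladder cancer cells. The genes were named as a family, with no measured value in the rule, although earlier results of these data were known when they were chosen: BCL2, BCL2L1, BCL2L2 and MCL1, which are pro-survival, BAX and BAK1, which are the effectors, and BID, BCL2L11, BBC3 and BMF, which are BH3-only. All 10 were found in both deposited tables, among 30148 genes for UMUC3, 17752 for SW780 and 32485 in either. BMF carries no name in the tables and was matched by its Ensembl identifier (ENSG00000104081).

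Each line was studied as cells labelled shNT (genotype WT in the labels) and as cells labelled shSCD1 (genotype SCD1 knockdown). The knockdown was made by lentivirus. SCD1, whose gene symbol is SCD, is a desaturase of the endoplasmic reticulum that turns saturated into monounsaturated fatty acids. UMUC3 cells were grown in MEM and SW780 cells in DMEM, both with 10% fetal bovine serum and antibiotics, so the lines differ in medium as well as in origin. Total RNA (3 ug) was sequenced from 1 library in each of the 4 groups. The number of hairpins, clones or cultures behind each library is not given in the sources used here. With 1 library a group there is no replicate check within a line and no test was made there, so a value called higher or lower is so in these libraries only.

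The proteins of this family act at the outer membrane of the mitochondrion. BAX and BAK1 form the pores that release cytochrome c, which then activates caspases through the apoptosome. The pro-survival proteins hold BAX, BAK1 and the BH3-only activators in check, and the BH3-only proteins pass on stress signals by binding the pro-survival proteins or by activating BAX and BAK1 directly. Epithelial tumour cells often depend on MCL1 and on BCL-XL, the main product of BCL2L1. Much of the control lies in protein turnover, splicing and phosphorylation, which a gene-level read count does not measure.

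Reads over the genes of each table came to 22818368 (shNT) and 32540576 (shSCD1) in UMUC3, and to 34087871 (shNT) and 25549737 (shSCD1) in SW780. SCD itself was 264 CPM (reads scaled to a total of 1000000 per library) in UMUC3 shNT and 59.6 in shSCD1, a fold of 4.44 lower with a 95% interval of 4.22 to 4.68. In SW780 it was 592 and 92.1 CPM, 6.43-fold lower (6.16 to 6.71). The headers of the tables do not name the groups, and the second library of each table was taken as shSCD1. The lower SCD in both second libraries is the only check of that reading in the measured values. Every direction given here would turn round if it were otherwise. Intervals come from the 2 read counts by the exact Clopper-Pearson method. They cover counting error only, not the spread between cultures or libraries. The labels mention no molecular identifiers, so some reads may be copies of 1 molecule and the intervals too narrow even for counting error.

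SW780 carried most of the epithelial and urothelial markers, with KRT7 at 4880 and 4430 CPM, CDH1 at 494 and 496, and UPK1B at 201 and 129 in shNT and shSCD1. UPK3A alone was under 1 CPM in both SW780 libraries, on 8 and 2 reads. Of the 10 such markers 7 were found for UMUC3, with a sum of 528 CPM in shNT and 251 in shSCD1. KRT18 (372 and 170 CPM) and KRT8 (148 and 78.3) made up most of that sum. KRT7 was 4.43 and 1.26 CPM in UMUC3, and KRT19 and UPK1B had 0 reads in both libraries. EPCAM, CDH1 and UPK3A were looked for but not found for UMUC3, so they have no value there. Of the mesenchymal markers, UMUC3 had VIM at 2794 and 2254 CPM, ZEB1 at 233 and 242, and CDH2 at 71 and 53.4. FN1 was low there, at 13.9 and 7.07. In SW780 the sum over the 4 mesenchymal markers was 301 CPM in shNT and 804 in shSCD1. Most of that sum was FN1 (280 and 734), followed by CDH2 (20.1 and 57.8). VIM was 0.616 and 11 CPM in SW780, and ZEB1 was 0.381 and 0.744. The sum over the 7 fibroblast markers in SW780 was 178 and 250, mostly COL3A1 (139 and 203), with COL1A2, DCN and PDGFRB at 0 reads in both. Endothelial markers summed to 5.52 and 5.64 CPM in SW780 and to 0.0438 and 0.0922 in UMUC3. Of the blood markers CD68 alone exceeded 1 CPM, at 67.0 and 47.5 in UMUC3 and 17.4 and 12.6 in SW780. The part of these shifts in the values below was not tested. In a bulk sample, fewer cells of a kind and less RNA per cell cannot be told apart.

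Among the pro-survival genes, BCL2L2 has a transcript that continues into its neighbour PABPN1, and the value given to BCL2L2 depends on whether those reads are added. On hg38, in the GENCODE 29 annotation, BCL2L2 lies on the plus strand of chromosome 14 from 23298790 to 23311759, the read-through gene BCL2L2-PABPN1 from 23306835 to 23325369, and PABPN1 from 23321289 to 23326185. BCL2L2 shares 19.4% of its exonic bases with the read-through gene on the same strand. The following exon junctions separate the 3 genes, each printed as 20 bases of the upstream exon in lower case and 20 bases of the downstream exon in capitals, 5′ to 3′, and they are shown because the shared exonic bases alone do not tell the transcripts apart.
BCL2L2-201: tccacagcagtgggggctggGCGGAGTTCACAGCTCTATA
BCL2L2-PABPN1-201: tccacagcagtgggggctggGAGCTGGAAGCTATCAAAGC
PABPN1-201: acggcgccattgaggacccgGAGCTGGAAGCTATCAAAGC
The upstream exon, chr14:23308180-23308199 at its end, is the same in BCL2L2 and in the read-through transcript. BCL2L2 joins it to chr14:23308816-23308835, and the read-through transcript joins it to chr14:23322181-23322200, the exon that PABPN1 also uses.

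The promoters of 3 members are given next because they stand for the different patterns found. BCL2L1 was lower in UMUC3 shSCD1 and BAK1 was higher there. BCL2L11 was the single member whose interval lay above 1 in both lines, though in UMUC3 only from 1.001. Each promoter is the stretch from 250 to 31 bases before a RefSeq start on GRCh38.p14, 5′ to 3′ in the direction of the gene. None overlaps an exon in GENCODE 29. Capitals mark matches on either strand to the motifs searched. The shares given are of 35116 RefSeq promoters of the same length. The E-box, letters CACGTG, is held by 5.40% of them. The cyclic AMP response element, letters TGACGTCA, is held by 1.27%. The TATA box, letters TATAAA, is held by 8.08%. The CCAAT box, read as named, is held by 29.8%. The GC box, letters GGGCGG, is held by 38.9%. The FOXO site, letters GTAAACA, is held by 2.60%. An E2F site with the letters TTTGGCGC is held by 0.444%, and another, which has the letters TTTCGCGC, by 0.399%. The marked matches do not overlap one another.
BCL2L1, chr20:31723994-31724213, minus strand: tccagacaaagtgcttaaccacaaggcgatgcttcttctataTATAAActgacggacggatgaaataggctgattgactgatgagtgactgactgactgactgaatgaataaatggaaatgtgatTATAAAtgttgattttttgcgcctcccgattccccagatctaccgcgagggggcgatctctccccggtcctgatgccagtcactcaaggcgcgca
BAK1, chr6:33580307-33580526, minus strand: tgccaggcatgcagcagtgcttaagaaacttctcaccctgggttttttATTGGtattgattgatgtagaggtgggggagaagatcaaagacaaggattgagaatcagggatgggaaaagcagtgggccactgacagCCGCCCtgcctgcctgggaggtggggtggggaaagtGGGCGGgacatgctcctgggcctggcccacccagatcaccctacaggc
BCL2L11, chr2:111120664-111120883, plus strand: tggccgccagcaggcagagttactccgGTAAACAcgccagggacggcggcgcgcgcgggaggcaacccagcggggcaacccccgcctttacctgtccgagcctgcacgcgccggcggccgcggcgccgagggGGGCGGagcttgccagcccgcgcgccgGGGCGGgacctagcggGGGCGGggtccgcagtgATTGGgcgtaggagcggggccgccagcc
The BCL2L1 stretch held 2 runs of the letters TATAAA and no other match. Every stretch ends 31 bases before its start, so a TATA box nearer the start would not be seen. The 2 runs therefore do not show a TATA promoter. The BCL2L1 stretch belongs to 1 of 2 RefSeq starts of BCL2L1. The stretch of the other, chr20:31722899-31723118, lies wholly in annotated exons and held 0 matches. The BAK1 stretch held 1 CCAAT box and 2 GC boxes. The BCL2L11 stretch held 1 CCAAT box, 3 GC boxes and 1 FOXO site. It lies inside the annotated gene, which begins further upstream at 111119378, so it belongs to one of several starts. A match is a run of letters and not a measured site.

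**Figure D1:**
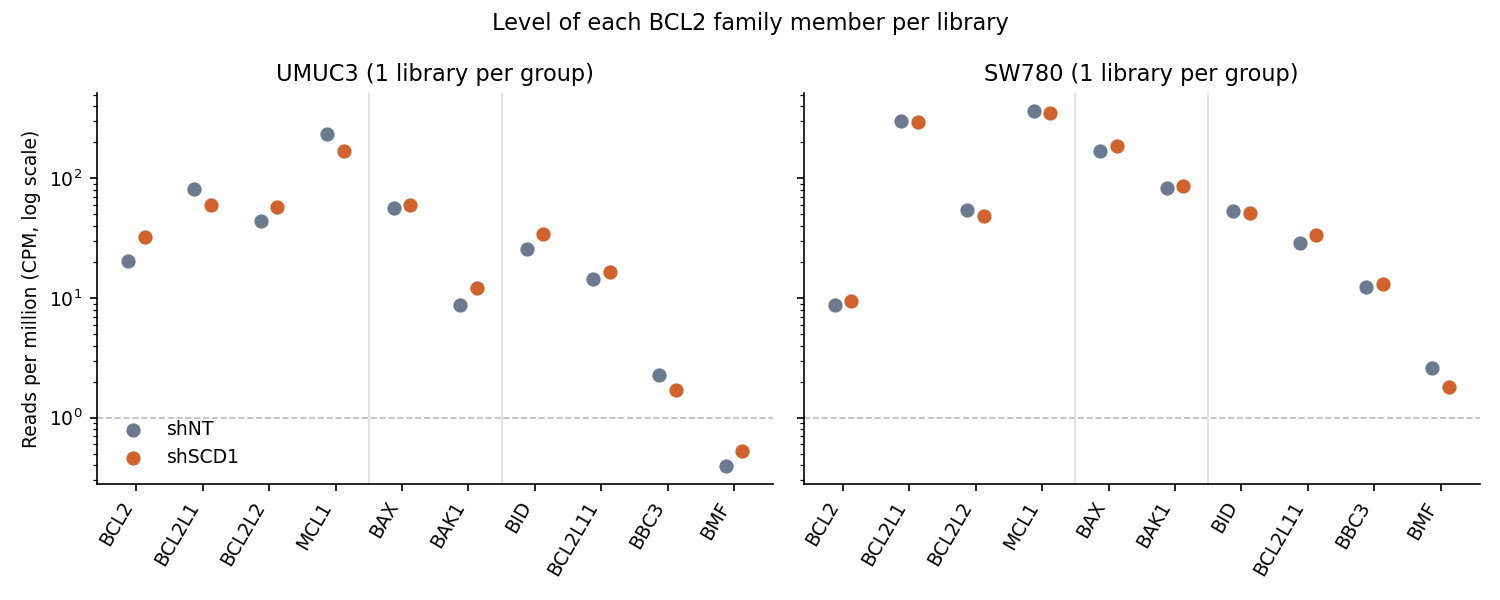
Level of each member in CPM (log axis) in each of the 4 libraries, with pro-survival, effector and BH3-only members set apart by vertical lines and 1 CPM dashed. In UMUC3 the shSCD1 point lies above shNT for BCL2 and below it for MCL1 and BCL2L1, while in SW780 the points of most members lie side by side.

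BCL2, the founding pro-survival gene, was measured at 20.3 CPM in UMUC3 shNT and 32.7 in shSCD1, and in SW780 at 8.80 and 9.51. The tables of the 2 lines were made apart, which holds for every level set across lines. Both UMUC3 libraries were above both SW780 libraries, and shSCD1 was the higher of the pair in each line. The UMUC3 difference was 1.61-fold (1.44 to 1.80, from 463 and 1063 reads), the largest among the members, and its log2 ratio of 0.66 stood at percentile 92.1 of the genes with at least 1 CPM. In SW780 the fold was 1.08 and its interval of 0.909 to 1.28 included 1. Log2 ratios are of CPM plus 1 in shSCD1 over shNT, which draws weakly expressed genes towards 0, while folds are plain ratios.

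MCL1, whose short-lived protein restrains BAK1 and BCL2L11, was the member with the most reads, at 236 CPM in UMUC3 shNT and 170 in shSCD1, and in SW780 at 365 and 356. It was lower in shSCD1 in both lines, but the interval excluded 1 in UMUC3 alone. There it was 1.39-fold lower (1.33 to 1.44), a log2 ratio of −0.47 at percentile 10.0 of all genes kept. In SW780 it was 1.03-fold lower with an interval of 0.998 to 1.05.

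BCL2L1, which gives rise to the pro-survival BCL-XL and by splicing to the pro-apoptotic BCL-XS, followed MCL1. Its levels were 82.2 CPM in UMUC3 shNT and 60.1 in shSCD1, against 304 and 299 in SW780. The UMUC3 pair differed 1.37-fold (1.28 to 1.46, lower in shSCD1), at percentile 10.8 of all genes kept. The SW780 pair differed 1.02-fold with an interval of 0.987 to 1.05 around 1. BCL2L1 shares 43.0% of its exonic bases with the antisense gene ABALON, which was 4.47 and 3.26 CPM in UMUC3 and was not found for SW780. Whether the reads were counted by strand is not given in the sources used here, so reads of the 2 genes cannot be told apart, and splice forms were not separated.

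BCL2L2, the gene of the pro-survival BCL-W, was 44.1 CPM in UMUC3 shNT and 58.2 in shSCD1, and 54.1 in SW780 shNT and 49.0 in shSCD1. It was the one member whose intervals lay off 1 in opposite directions, 1.32-fold higher for UMUC3 (1.22 to 1.43) but 1.10-fold lower for SW780 (1.03 to 1.19). Among 11125 genes with at least 1 CPM in both lines, 20.1% had intervals off 1 in opposite directions and 21.0% in the same direction. The read-through gene differed between the 2 tables: BCL2L2-PABPN1 had 10 and 50 reads in UMUC3, but 1765 and 1342 in SW780. Whether the lines or the counting of the tables differed was not tested. That is 0.984% and 2.57% of the sum of BCL2L2 and read-through reads in UMUC3 shNT and shSCD1, and 48.9% and 51.7% in SW780. With the read-through reads added, a step chosen after the values were seen, the UMUC3 fold was 1.34 (1.24 to 1.45), and in SW780 it was 0.959 with an interval of 0.912 to 1.01 that included 1. The SW780 fold thus stayed below 1, and only with the read-through reads left aside did its interval exclude 1. The read-through gene shares 94.7% of its exonic bases with other genes, 42.2% with PABPN1. Some of the reads added may therefore come from PABPN1.

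BAX, the effector that moves from the cytosol to mitochondria when activated, was 56.5 CPM in UMUC3 shNT and 59.9 in shSCD1, and 169 in SW780 shNT and 188 in shSCD1. SW780 was well above UMUC3 in both arms, and shSCD1 was slightly above shNT in both lines. The interval included 1 in UMUC3 (1.06-fold, 0.987 to 1.14) and excluded it in SW780 (1.11-fold, 1.07 to 1.16).

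BAK1, the effector that sits in the outer membrane before activation, differed widely between the lines, at 8.68 and 12.2 CPM in UMUC3 and 83.0 and 87.1 in SW780 (shNT, then shSCD1). In UMUC3 it was 1.40-fold higher in shSCD1, with an interval of 1.18 to 1.67 that reflects its 198 and 396 reads. In SW780 the fold was 1.05 and its interval, 0.992 to 1.11, included 1.

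BID, which caspase cleavage turns into an activator of BAX and BAK1 downstream of death receptors, was 25.9 CPM in UMUC3 shNT and 34.2 in shSCD1, against 53.7 and 51.9 in SW780. The 2 UMUC3 libraries differed 1.32-fold (1.19 to 1.46, higher in shSCD1). In SW780 the fold was 0.966 and its interval included 1 (0.900 to 1.04).

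BCL2L11 encodes BIM, an activator that binds every pro-survival member of the set. It was 14.5 CPM in UMUC3 shNT and 16.6 in shSCD1, against 28.95 and 34.01 in SW780. Its interval lay above 1 in both lines, just so in UMUC3 (1.15-fold, 1.001 to 1.32) and further off in SW780 (1.18-fold, 1.07 to 1.29). Centred on the median of all genes kept, its UMUC3 log2 ratio was 0.15 in place of 0.19. The UMUC3 bound is close enough to 1 for such a shift to bring 1 into the interval. The difference between the lines had an interval that included 0, as it did for BAX. BCL2L11 shares 10.9% of its exonic bases with MIR4435-2HG on the other strand. That gene was 74.7 CPM in UMUC3 shNT and 59.1 in shSCD1, and it was not found for SW780. As with BCL2L1 and ABALON, reads of the 2 genes cannot be told apart.

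BBC3, the BH3-only gene that encodes PUMA, was weakly expressed in UMUC3, at 2.28 CPM (52 reads) in shNT and 1.72 (56 reads) in shSCD1. In SW780 it was 12.3 and 13.2 CPM. Both intervals included 1, at 0.508 to 1.12 in UMUC3 around a fold of 0.755 and at 0.927 to 1.24 in SW780 around 1.07.

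BMF, whose product is held at the cytoskeleton by a dynein light chain, was the least expressed member. UMUC3 had 9 reads in shNT and 17 in shSCD1 (0.394 and 0.522 CPM), under 1 CPM in both, so BMF was not among the genes kept there. SW780 had 88 and 46 reads (2.58 and 1.80 CPM), a fold of 0.697 with an interval of 0.477 to 1.01. Its log2 ratio of −0.36 in SW780 was the lowest of the 10 in that line, on the fewest reads.

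Taken by number, none of the members passed the size rule, a log2 ratio of at least 1 (2-fold) with at least 1 CPM in either library. In UMUC3, where 9 of the 10 could pass, the rule was met by 2.47% of all genes kept in the higher direction and 2.18% in the lower one. In SW780, where all 10 could, it was met by 1.48% and 1.06%. A 1.5-fold rule was passed by BCL2 in UMUC3, against 10.1% of all genes higher and 6.86% lower, and by no member in SW780, against 5.05% and 3.70%.

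By counting error alone, 5 members were higher in UMUC3 shSCD1 (BCL2, BCL2L2, BAK1, BID and BCL2L11) and 2 were lower (BCL2L1 and MCL1). The same held for 35.9% of all genes kept in the higher direction and 29.6% in the lower. In SW780 BAX and BCL2L11 were higher and BCL2L2 was lower, against 28% and 29.8% of all genes. GFOLD, a log2 fold change drawn towards 0 by counting error, is given in the authors' deposited table. It was off 0 for 4 members higher and 2 lower in UMUC3, against 25.8% and 34.9% of all genes, and for 2 higher and 1 lower in SW780, against 25.7% and 26%. In the authors' deposited table the GFOLD of BCL2L11 in UMUC3 was 0. Counts this close to the background say nothing particular about the family.

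The median size of the log2 ratio over all 10 members was 0.39 in UMUC3, beside 0.25 for all genes kept, and 0.10 in SW780, beside 0.16. The signed median over all 10 was 0.16 in UMUC3, beside 0.04 for all genes, and 0.02 in SW780, beside −0.01. Of the 10 members, 4 were above 0 in both lines (BCL2, BAX, BAK1 and BCL2L11), 2 were below 0 in both (BCL2L1 and MCL1) and 4 were opposite. Among all genes kept in both lines, 48.5% were opposite.

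**Figure D2:**
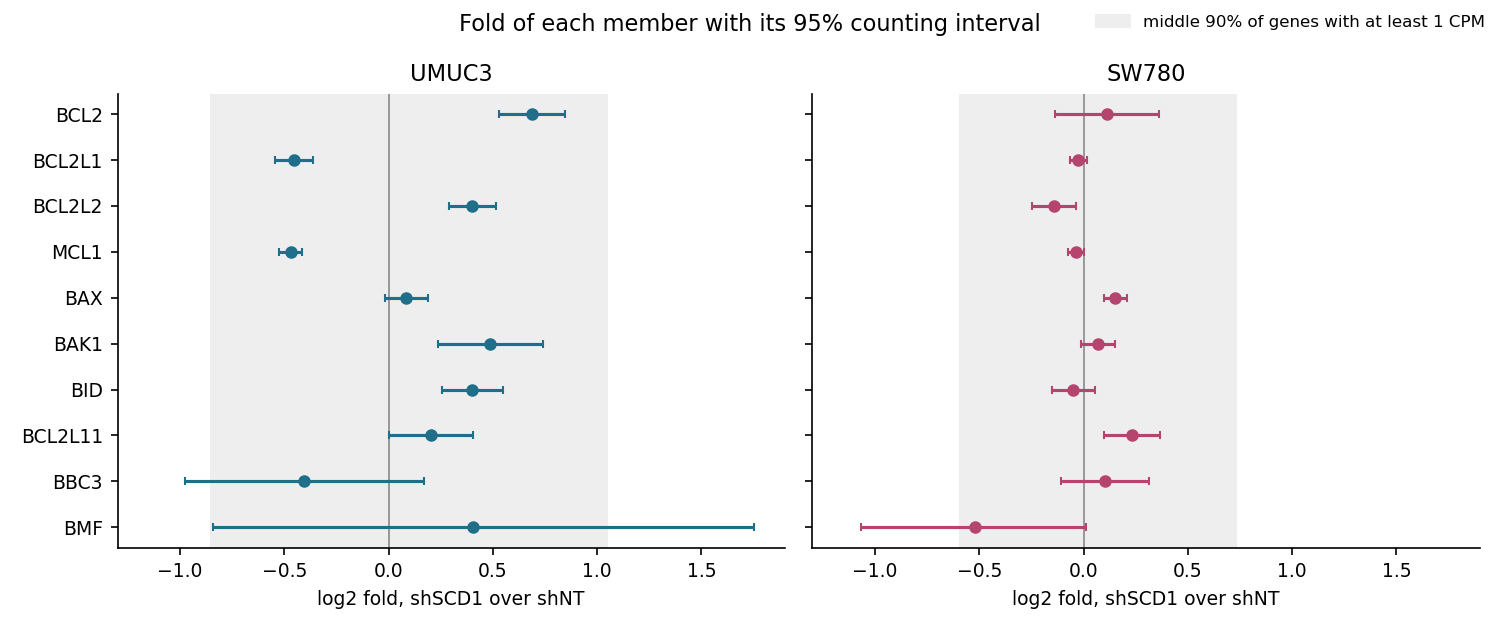
Log2 fold of each member, shSCD1 over shNT without a pseudocount, with its 95% counting interval, in UMUC3 (left) and SW780 (right). Shading spans the middle 90% of genes with at least 1 CPM; all 10 points of each line lie within it, and most UMUC3 points lie further from 0 than the SW780 points.

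The change in UMUC3 minus the change in SW780, on the log2 scale without a pseudocount, had a counting interval off 0 for 6 of the 10 members, against 64.1% of the 11125 genes compared. It was 0.57 for BCL2 (0.29 to 0.86), 0.54 for BCL2L2, 0.42 for BAK1 and 0.45 for BID, all higher in UMUC3. It was −0.43 for MCL1 (−0.50 to −0.37) and −0.43 for BCL2L1, both lower in UMUC3. For BAX (−0.07), BCL2L11 (−0.03), BBC3 (−0.51) and BMF (0.93) the interval included 0. With 1 library a group these intervals compare libraries, and the difference between the lines could not be tested over replicates.

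Taking the 2 lines as the replicates of the knockdown, limma on log2(CPM + 1) with the cell line as a block called none of the 10 members among 12643 genes. The largest joint estimate was 0.38 for BCL2 (SE 0.23, interval −0.20 to 0.96, limma adjusted p = 0.961), and the next in size were BAK1 at 0.26, MCL1 at −0.25 (interval −0.66 to 0.15) and BCL2L1 at −0.24. BCL2L11, which moved alike in both lines, had 0.21 with an interval of −0.26 to 0.67. The smallest unadjusted p of a member was 0.157 in limma, so none was under 0.05, nor was any under 0.05 in edgeR's quasi-likelihood test or in DESeq2. In limma the adjusted threshold was passed by 1 gene, 0.00791% of those tested, and by 0 with a pseudocount of 0.1, with no filter on low values or with TMM factors. That gene was BEST1 (ENSG00000167995, log2 −4.94, adjusted p = 0.0184), named after its value was seen, and SCD itself had an adjusted p of 0.0876. The fit leaves 1 residual degree of freedom, so its intervals are wide and include changes as large as those seen in UMUC3.

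Levels of different genes were compared per length, as CPM divided by the union exon length in kilobases (RPKM), within a library. In UMUC3 shNT the order ran MCL1 (54.0 RPKM), BCL2L1 (24.8), BAX (21.8), BCL2L2 (10.5), BID (5.83), BAK1 (3.92), BCL2L11 (2.17), BCL2 (1.73), BBC3 (0.717) and BMF (0.0724), with no overlap between the counting intervals of neighbours. In UMUC3 shSCD1 BAX (23.1) stood above BCL2L1 (18.1), and BCL2 (2.78) stood above BCL2L11 (2.497) with overlapping intervals. In SW780 the order was the same in both arms, with BCL2L1 first (91.9 in shNT, 90.3 in shSCD1), then MCL1 (83.5 and 81.4), BAX (65.2 and 72.5) and BAK1 (37.5 and 39.4). BCL2L2 and BID overlapped in both arms, BCL2L11 and BBC3 overlapped in shNT, and BCL2 came ninth (0.748 and 0.808) ahead of BMF.

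That order rests on the length used. Longest-transcript lengths put BAX ahead of BCL2L1 in UMUC3 shNT, and first, ahead of MCL1, in UMUC3 shSCD1 and in SW780. Coding lengths put BCL2L2 ahead of BAX and BCL2L1 in UMUC3 shSCD1. BCL2 has the longest union of exons of the set, 11765 bases, so in UMUC3 its place per length is lower than its place by CPM, while in SW780 it is ninth by both. Coding lengths put it sixth in both UMUC3 libraries in place of eighth (shNT) and seventh (shSCD1).

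Summed per length, the 4 pro-survival members were 91.0 RPKM in UMUC3 shNT and 73.8 in shSCD1, and 189 and 184 in SW780. Within the UMUC3 sum the abundant pair MCL1 and BCL2L1 was lower in shSCD1, while BCL2 and BCL2L2 were higher. MCL1 made up 59.3% of the UMUC3 sum in shNT and 52.8% in shSCD1, BCL2L1 27.2% and 24.6%, BCL2L2 11.6% and 18.8%, and BCL2 1.895% and 3.76%. In SW780 BCL2L1 held 48.6% and 49.0% and MCL1 44.2% and 44.2%, with BCL2 at 0.396% and 0.439%. The 2 effectors summed to 25.8 and 28.6 RPKM in UMUC3 and to 103 and 112 in SW780, of which BAK1 was 15.2% and 19.2%, and 36.5% and 35.2%. The 4 BH3-only members summed to 8.79 and 10.8 RPKM in UMUC3 and to 20.8 and 21.3 in SW780, with BID the largest share in each of the 4 libraries. These sums and shares rest on the union exon length, as the order does, and were not computed with other lengths. They add RNA levels and are not protein stoichiometries.

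**Figure D3:**
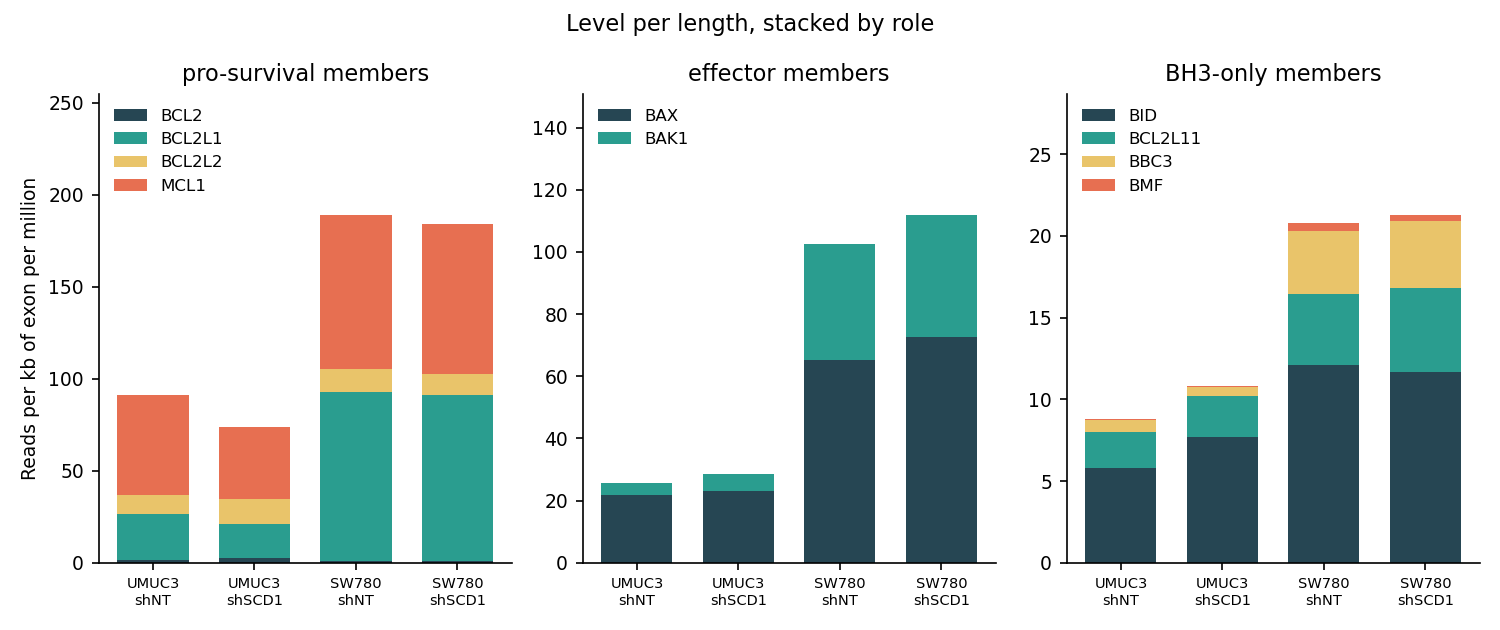
Level per length (RPKM, from union exon lengths), stacked by role (pro-survival, effector, BH3-only), for the 4 libraries; each panel has its own axis from 0. The pro-survival bar is shorter in UMUC3 shSCD1 (73.8) than in shNT (91.0) and the SW780 bars are 189 and 184.

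Ratios between members within a library do not depend on its scaling, and in their change the gene lengths cancel. The BAX to BCL2 ratio per length was 12.7 in UMUC3 shNT and 8.33 in shSCD1, 1.52-fold lower (1.33 to 1.73). In SW780 it was 87.2 and 89.7, a change whose interval of 0.862 to 1.23 included 1. The BAX to BCL2L1 ratio went the other way in UMUC3, 1.45-fold higher (1.32 to 1.60), and was 1.13-fold higher in SW780 (1.08 to 1.19). The direction of a BAX to pro-survival ratio in UMUC3 therefore depended on which pro-survival gene was set beside it.

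BAK1 to MCL1, a pair that binds directly, had the largest change of the 7 pairs compared, 1.94-fold higher in UMUC3 shSCD1 (1.63 to 2.33), and was 1.08-fold higher in SW780 (1.01 to 1.15). BCL2L11 was 1.59-fold higher relative to MCL1 for UMUC3 (1.38 to 1.84), against 1.21-fold for SW780 (1.09 to 1.33). Relative to BCL2L1 it was 1.57-fold higher (1.349 to 1.84) and 1.195-fold (1.08 to 1.32). The BBC3 to MCL1 and BMF to BCL2L2 ratios had intervals that included 1 in both lines. The pairs share genes, so they are not separate pieces of evidence.

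**Figure D4:**
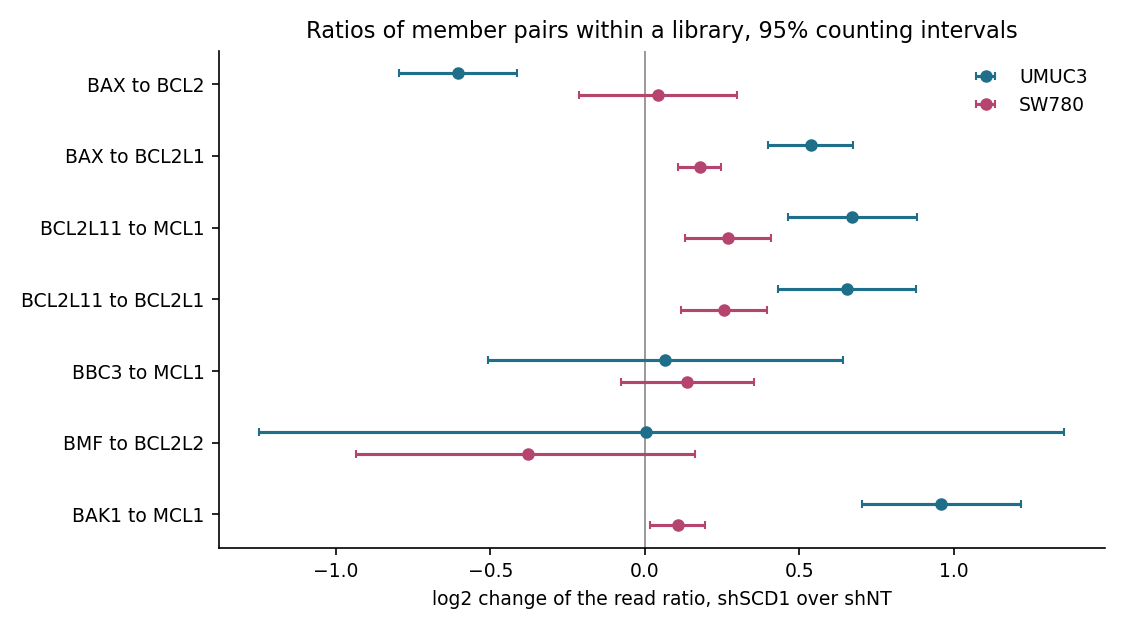
Log2 change, shSCD1 over shNT, of the ratio of 2 members' reads within a library, with 95% counting intervals, for 7 pairs in each line. In UMUC3 the BAX to BCL2 ratio lies below 0 and the BAK1 to MCL1 ratio furthest above it.

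The other genes of the pathway were taken from 6 lists, 63 of whose 64 genes were found in UMUC3 and 64 in SW780. In UMUC3 none of the 56 kept was higher past 2-fold and 3 were lower, among them BNIP3, a mitophagy receptor related to the family, and DDIT3, the stress factor CHOP. In SW780 none of the 59 kept passed the 2-fold size rule in either direction, although the plain fold of TNFSF10 was 2.02. Past 1.5-fold there were 3 higher and 7 lower in UMUC3, and 2 higher and 0 lower in SW780. Over all genes kept, the 2-fold rule was passed by 2.47% higher and 2.18% lower in UMUC3 and by 1.48% and 1.06% in SW780, and the 1.5-fold rule by 10.1% and 6.86%, and 5.05% and 3.70%. The UMUC3 ratios were above 0 for 24 of the 56 and below for 32, and the SW780 ratios were above for 29 of 59 and below for 30.

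The 13 further BCL2 family genes had 9 kept in each line, with a median log2 ratio of −0.04 in UMUC3 (4 above 0, 5 below) beside 0.04 for all genes, and of 0.22 in SW780 (8 above, 1 below) beside −0.01. BNIP3 was 188 CPM in UMUC3 shNT and 78.5 in shSCD1, 2.40-fold lower (2.28 to 2.52), but 9.36 and 14.7 CPM in SW780, 1.57-fold higher (1.347 to 1.83). HRK, a BH3-only gene, was 1.83-fold higher in UMUC3 (9.16 to 16.7 CPM) and under 1 CPM in both SW780 libraries. BCL2L12 was 1.16-fold lower in UMUC3 and 1.32-fold higher in SW780 (1.21 to 1.43).

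Of the apoptosome and caspase genes, 12 of 13 were kept in UMUC3 (median −0.001) and 13 in SW780 (median −0.01). CASP2, an initiator caspase, was 1.91-fold higher in UMUC3 (1.72 to 2.11) and 1.08-fold higher in SW780. CASP9, the apoptosome's caspase, was 1.23-fold lower in SW780 (1.08 to 1.41), with an interval that included 1 in UMUC3. ENDOG, a mitochondrial nuclease, was 1.31-fold higher in SW780 (1.02 to 1.67) on 138 and 135 reads.

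The inhibitors of apoptosis were 5 kept of 5 found in UMUC3 and 5 of 6 in SW780, with medians of 0.10 and 0.09. XIAP, which blocks caspases directly, was lower in shSCD1 in both lines. The UMUC3 pair differed 1.38-fold (1.31 to 1.46), and the SW780 pair 1.19-fold (1.13 to 1.25). BIRC5, the mitotic protein survivin, was 1.31-fold higher in SW780 (1.24 to 1.37) and 1.08-fold higher in UMUC3 (1.02 to 1.13). BIRC3 was 1.14-fold higher in UMUC3 and 1.13-fold higher in SW780.

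The death receptor genes had a median of −0.29 in UMUC3 (8 kept, 3 above 0, 5 below) and 0.02 in SW780 (9 kept). FAS was 1.66-fold lower in UMUC3 (30.5 and 18.4 CPM) and 1.07-fold higher in SW780. The ligand TNFSF10, known as TRAIL, was 2.02-fold higher in SW780 (1.87 to 2.18), where its log2 ratio of 0.99 was just under the size rule. In UMUC3 it had 2 reads in shNT and 0 in shSCD1, under the floor of 3 reads. RIPK1 was 1.52-fold higher in UMUC3 and 1.14-fold lower in SW780. TNFRSF1A was 1.12-fold lower in UMUC3 and 1.18-fold lower in SW780.

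Of the partners and turnover genes, 9 of 12 were below 0 in UMUC3 (median −0.18, beside 0.04 for all genes) and 10 of 12 in SW780 (median −0.04, beside −0.01). VDAC1, a channel of the outer membrane, was 592 CPM in UMUC3 shNT and 320 in shSCD1, 1.85-fold lower (1.80 to 1.899), while the SW780 pair differed 1.04-fold (lower, 1.02 to 1.07). DYNLL2, the light chain that holds BMF, was higher in both lines, 1.40-fold and 1.27-fold. BTRC, a ubiquitin ligase subunit that can mark MCL1 for degradation, was 1.30-fold lower in SW780 (1.19 to 1.42), with an interval that included 1 in UMUC3.

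The transcriptional regulators had a median of 0.03 in UMUC3 (10 kept) and −0.01 in SW780 (11 kept). DDIT3, which can raise BCL2L11 and lower BCL2, was 118 CPM in UMUC3 shNT and 32.0 in shSCD1, 3.69-fold lower (3.44 to 3.97), and in SW780 8.45 and 7.95 CPM with an interval that included 1. E2F1 was higher in both lines, 1.51-fold and 1.46-fold. STAT3, an activator of MCL1 and BCL2L1 in many cells, was 1.69-fold lower in UMUC3 (138 and 81.7 CPM) and 1.10-fold higher in SW780.

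**Figure D5:**
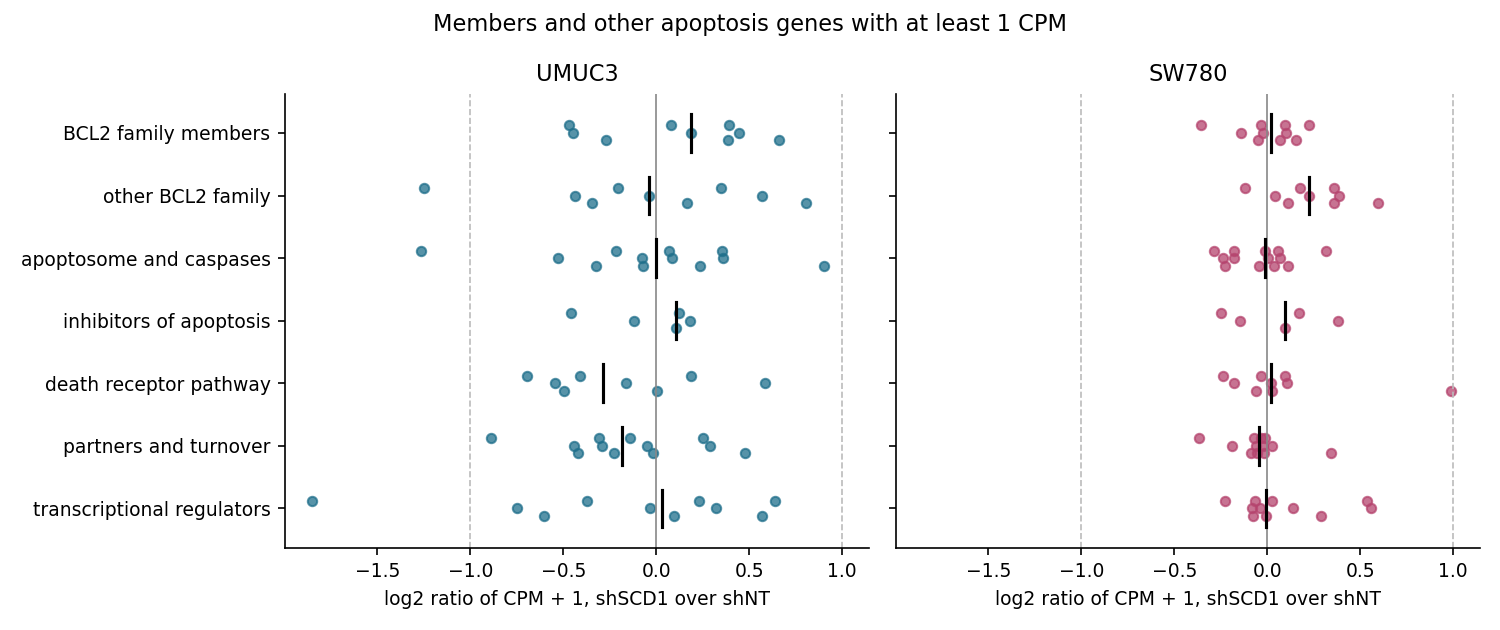
Log2 ratio of CPM plus 1, shSCD1 over shNT, of each member and each gene of the 6 lists with at least 1 CPM in either library; black bars are list medians and dashed lines mark 2-fold. In UMUC3 3 points lie beyond the lower line, BNIP3 and DDIT3 among them, and no SW780 point lies beyond either line; BMF, under 1 CPM in both UMUC3 libraries, is left out there.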

How the data were processed

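The authors deposited 1 table per cell line. Its columns, per the file headers, are GFOLD (setting 0.01), an empirical FDR, the log2 fold change, and 2 that are headed RPKM. Per the submitters' processing notes, hg38 was the build. For the aligner, counter, annotation release and strand use, nothing is given in the sources used here. The deposited signal under the RPKM header is a read count scaled to 50000000 per column, with no gene length in it: 100% of values up to 20 reads and at least 99.9% of all values above 0 lay within 0.1 reads of a whole read. Whole reads were recovered and used as CPM. The deposited log2 fold change and GFOLD were used beside these values, and the deposited p-value-like empirical FDR, 1 for every gene, was not used.

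The headers do not say which library is which group. The second was read as shSCD1, the name the tables bear, because their fold changes are second over first. The sample descriptions also number the shNT library of each line before its shSCD1 library.

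The members and lists were chosen with earlier results of these data known. Genes named were the 10 members, SCD, list genes past 2-fold and the 2 largest ratios per list and line, of which 2 genes are not reported here. A gene was kept if either library had at least 1 CPM, which left 14063 (UMUC3) and 12880 (SW780). A floor of 3 reads was set (0.131, 0.0922, 0.0880 and 0.117 CPM for UMUC3 shNT, UMUC3 shSCD1, SW780 shNT and SW780 shSCD1). A gene at 0 reads may still be expressed below that floor. Exonic lengths came from GENCODE 29. Promoters came from RefSeq, which matched 8 of the 10 members. Fits used limma 3.58.1 (trend, Benjamini-Hochberg over all genes), with edgeR 4.0.16 and DESeq2 1.42.0 on whole reads as alternatives, in R 4.3.3. They were also run on simulated counts in which each changed gene had the same fold in both lines. That simulation does not cover changes that differ between the lines. Other scalings, pseudocounts, filters and lengths were tried.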

Additional observations from a re-analysis of the deposited data

Results flagged for a closer look

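Among the members, BCL2L2 moved in opposite directions in the 2 lines with both counting intervals off 1, at a log2 ratio of 0.394 in UMUC3 and −0.139 in SW780. The difference was not tested over replicates, and with the reads of BCL2L2-PABPN1 added the SW780 value was −0.059 with an interval that included no change.

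Of the other apoptosis genes named, 5 moved apart in the same way, also untested. BNIP3 was −1.251 in UMUC3 and 0.598 in SW780. STAT3 was −0.748 and 0.140, and FAS −0.697 and 0.097. RIPK1 was 0.583 and −0.181, and BCL2L12 −0.207 and 0.387. Such opposite pairs made up 20.1% of the 11125 genes compared.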

How the results depend on the processing

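No member passed 2-fold in either line under any scaling, pseudocount or filter tried, and under the 1.5-fold rule 1 member, BCL2, passed in UMUC3. No member changed sign under the 7 alternatives for its ratio. In UMUC3 BCL2 ranged from 0.58 to 0.69, MCL1 from −0.55 to −0.44, BAX from 0.002 to 0.11 and BCL2L11 from 0.118 to 0.215. Counting intervals were not recomputed under these alternatives. That of BCL2L11 in UMUC3, which starts at 1.001, rests on the scaling used. The low ends of MCL1 (−0.551) and SCD (−2.231) came from the authors' deposited log2 fold change, under which the median of all UMUC3 genes kept was −0.04 in place of 0.04. That fold change, which also has no pseudocount of 1 CPM, gave 639 UMUC3 genes higher past 2-fold and 627 lower, and 396 and 236 in SW780, beside 347 and 306, and 191 and 136. A pseudocount of 0.1 gave 717 and 518 in UMUC3, and 372 and 228 in SW780. A pseudocount of 5 gave 83 and 98, and 77 and 65.

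No member was called over both lines in any of 8 fits (member adjusted p from 0.891 to 1). The genes called were 1 in limma (0 with a pseudocount of 0.1, no filter or TMM factors), 0 in edgeR (395 at an unadjusted p under 0.05) and 27 in DESeq2, and with no replicate block for cell line 0 (9 unadjusted, beside 527 with it). Leaving out either line leaves no residual degree of freedom and so no test. Neighbouring pairs in the order per length that held under other lengths were 6 to 9 of 9. Depth limits BMF in UMUC3 (9 and 17 reads) and BBC3 (52 and 56).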
